A study of Mus musculus with 8 samples.

Results

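The integrated stress response genes and Fgf21 were followed in liver of mice that lack Rap1. Rap1, whose gene symbol is Terf2ip, encodes a telomere-binding protein that also binds along chromosome arms. The set is a list of 10 genes chosen by their known roles and not by how they moved, although earlier results of these data were known. It was kept apart from the chaperones of the endoplasmic reticulum (ER). It holds Atf4, Ddit3, Trib3, Asns, Chac1, Atf3, Ppp1r15a, Sesn2, Fgf21 and Xbp1, which were read by 11 array probes. All 10 were among the 14066 genes tested, and all 11 probes were well above background on 8 of 8 arrays.

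Liver RNA was hybridised to single-colour Agilent arrays, 1 mouse per array, from 4 Rap1 -/- mice and 4 wild-type mice. Every mouse was 10 weeks old and of the C57BL6/129SV (90%:10%) background. The deletion is whole-body, was made with a Cre driven by the EIIa promoter, which is active in the early embryo, and is present in every cell type of the liver. The labels give neither sex nor feeding state, while the study describes young females and both fed and fasted livers. The feeding state behind the values of Fgf21 and other genes that respond to fasting is thus not known here.

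When unfolded protein, lack of amino acids, lack of haem or viral RNA is sensed, 1 of several kinases phosphorylates the translation factor eIF2, which slows translation in general and favours translation of the transcription factor ATF4. ATF4 and its partner CHOP, encoded by Ddit3, then induce genes for amino acid supply, redox control and the recovery of translation. The IRE1 branch of the unfolded protein response, through XBP1, and its ATF6 branch act beside it and induce chaperones. In liver, ATF4 also induces the hormone gene Fgf21, and fasting induces the same gene through PPARα. ATF4 is controlled largely at translation, so the level of Atf4 messenger RNA is no measure of ATF4 protein.

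Promoter sequences of the 10 genes were searched because ATF4 and its C/EBP partners bind the C/EBP-ATF response element. RefSeq windows of 300 bases (250 before the transcription start and 50 after it, build GRCm38.p6) were searched on both strands. The core TGATGNAA lay in the windows of 5 of the 10 genes, against 3.97% of 32851 windows of all genes. The palindromic cAMP response element TGACGTCA lay in 1 of the 10, Ppp1r15a, against 1.79% of all windows. No window of the 10 held both motifs. The third search was for the ER stress response element, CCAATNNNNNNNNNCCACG, which serves ATF6 and XBP1. It was in 0.119% of all windows, in 0 of the 10 genes and in 9 of the 22 chaperone genes that had a window, Hspa5, Hsp90b1, Calr, Canx, Creld2, Derl3, Dnajc3, Pdia6 and Syvn1. TGATGNAA was in 2 of those 22, Cnpy2 and Txndc5. Each match is shown on the strand on which it reads, with the core in capitals and 11 bases on each side, since these are the letters through which ATF4 can act on its targets. A match is a description of letters and not of a bound site. The Atf3 match starts 110 bases upstream of the start (chr1:191183425-191183454, plus strand), that of Chac1 193 bases upstream (chr2:119351038-119351067, minus strand) and that of Fgf21 139 bases upstream (chr7:45615611-45615640, plus strand). The Asns match starts 23 bases upstream (chr6:7693214-7693243, minus strand), and the Trib3 match lies within the transcript from base 15 (chr2:152344028-152344057, plus strand). The match in Ppp1r15a starts 12 bases upstream (chr7:45526262-45526291, minus strand).
Atf3: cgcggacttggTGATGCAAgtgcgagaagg
Chac1: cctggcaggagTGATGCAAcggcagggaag
Fgf21: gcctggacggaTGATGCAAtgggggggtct
Asns: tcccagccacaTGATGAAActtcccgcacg
Trib3: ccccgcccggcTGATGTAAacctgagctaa
Ppp1r15a: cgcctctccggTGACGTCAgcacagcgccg
The 3 printed matches of Atf3, Chac1 and Fgf21 share the core TGATGCAA.

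Levels are given as log2 of the processed signal minus the array's own 75th percentile, so a level of 0 equals that percentile. They can be compared between mice for 1 probe, and not between probes. The targeted gene was checked first. Wild-type liver read 0.14 ± 0.09 (SD, n = 4) on Terf2ip probe A_52_P381806. On the 4 knockout arrays this probe was not well above background, so the drop is given as a bound, at least 18.97-fold. The limma fit over all probes used the dim knockout values as read and gave a log2 difference of -6.42 (adjusted p = 7.20e-06). The other Terf2ip probe, A_55_P2094079, was well above background in all 8 livers and 1.20 higher in knockout liver on the log2 scale (adjusted p = 0.127), and since the part of the gene it reads was not examined it checks no label. All 10 hepatocyte markers were well above background on every array. Their summed level, in multiples of the 75th percentile signal, was 6486 to 6735 in Rap1-deficient liver and 6877 to 7681 in wild-type liver, without overlap. Such a sum is set mainly by the brightest probes. By gene, log2 fold changes (knockout minus wild type) were above 0 for 5 and below 0 for 5, with a median of -0.004. Of the 10 markers only Alb, which was lower in knockout liver, did not overlap between genotypes. The part of this in the results was not tested. In whole tissue, fewer cells of a type and less RNA per cell cannot be told apart. The summed levels of the 9 other marker lists overlapped between genotypes. Adipocyte markers, 5 genes, summed to 3.74 in Rap1-deficient replicate 4 and 0.44 in wild-type replicate 4, against 0.134 to 0.232 in the other 6 livers. Cfd, a marker named here after its values were seen, was at 1.65 in Rap1-deficient replicate 4, at -2.56 in wild-type replicate 4 and between -6.18 and -5.00 elsewhere. Adipoq was at -1.28 and -3.54 in these 2 livers and between -6.01 and -5.07 elsewhere. Plin1 was highest in Rap1-deficient replicate 4 (-3.21), but wild-type replicate 4 (-4.63) lay below Rap1-deficient replicate 3 (-4.41). Cidea did not follow, at -5.23 in Rap1-deficient replicate 4, -3.21 in wild-type replicate 4 and -3.20 in Rap1-deficient replicate 3. Lep was not well above background in any of the 8 livers. Adipocyte signal below thus rests mainly on Cfd and Adipoq. Results that rest on Rap1-deficient replicate 4 and wild-type replicate 4 are also given without them. On each slide the wild-type arrays lay in positions 1 and 2 and the knockout arrays in positions 3 and 4, so position and genotype cannot be told apart.

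None of the 10 stress response genes passed the test of Rap1-deficient against wild-type liver. Over all 14066 genes 2 passed an adjusted p of 0.05 (0.0142%), namely Chst4 and Zfhx3, which the list does not hold and which are named here after their values were seen, and 1 gene passed when any single liver was left out. Among the 10 genes, 0 passed. Over single probes, 2 of 31068 passed (0.00644%), and 0 of the 11 probes of these genes did. The 2 passing probes include A_52_P381806 of the targeted gene Terf2ip. In the gene counts its brighter probe A_55_P2094079 stood for Terf2ip, which did not pass there. At an unadjusted p of 0.05 the counts were 0 of 10 genes and 6.36% of all genes. In 0 of 10 genes did the genotypes fail to overlap, against 4.30% of all genes. Fitted log2 fold changes, knockout minus wild type, were above 0 for 4 of the 10 genes and below 0 for 6, and 55.8% of all genes were above 0. Their median was -0.11, and that of all genes was 0.02. Adjusted p values ran from 0.807 for Xbp1 to 0.996 for Fgf21. Without Rap1-deficient replicate 4 and wild-type replicate 4, 0 of 10 genes passed as well, and the median was -0.13.

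The size of change that these data allow differed from gene to gene. The 95% intervals of 7 of the 10 genes lay wholly within 1 log2 unit of 0, that is within 2-fold either way. Those of Chac1, Atf3 and Fgf21 did not. The narrowest interval belonged to Sesn2, -0.38 to 0.05, and the widest to Fgf21, -1.58 to 1.46. An interval that includes 0 does not show that the genotypes were alike.

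**Figure D1:**
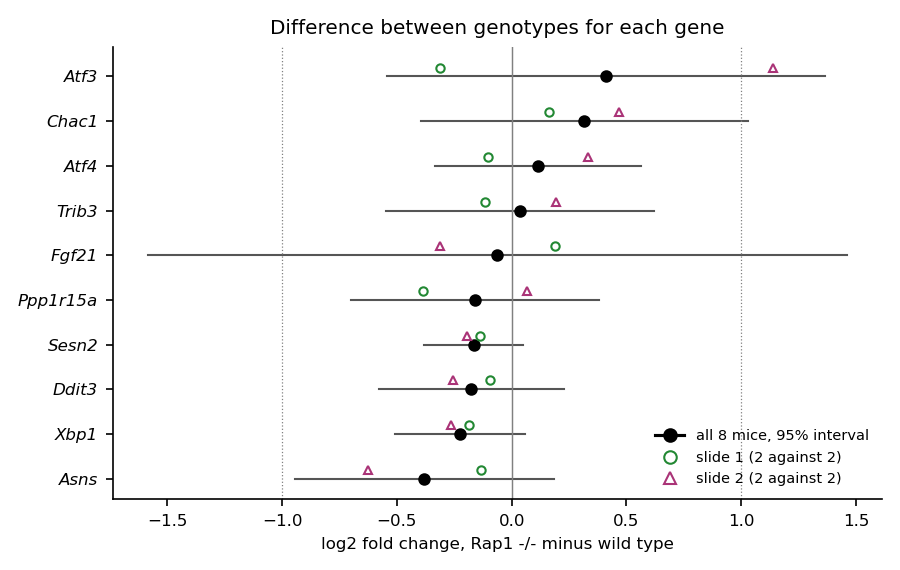
Log2 fold change of each gene, Rap1 -/- minus wild type (horizontal axis), with its 95% interval over 8 mice (filled points and lines) and the differences within slide 1 and within slide 2 (open circles and triangles). Every interval crosses 0, and the dotted lines mark a change of 1 log2 unit, which the intervals of Chac1, Atf3 and Fgf21 pass.

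Atf4, the transcription factor through which the response acts, overlapped between the genotypes on both of its probes. The representative probe A_55_P1979728 was at 6.43, 6.90, 6.41 and 6.35 in wild-type replicates 1 to 4 and at 6.29, 6.84, 6.39 and 7.03 in Rap1-deficient replicates 1 to 4. Each genotype held low and high livers, and Rap1-deficient replicates 1 and 4 were the lowest and the highest of the 8. The log2 fold change was 0.11 (SE 0.20, 95% interval -0.33 to 0.56, limma adjusted p = 0.939). The dimmer probe A_51_P464238 was at 0.93, 0.92, 0.82 and 0.91 in wild-type liver and at 0.53, 1.39, 0.85 and 1.14 in Rap1-deficient liver. On this probe the 4 wild-type livers lay close together (SD 0.054), and the Rap1-deficient livers spread to both sides of them (SD 0.37). Its difference was 0.079 (exact permutation p = 0.714, two-sided, 70 partings). Without Rap1-deficient replicate 4, the liver with the adipocyte signal, the fold change of Atf4 was -0.016.

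Ddit3 encodes CHOP, the partner of ATF4 that is linked to cell death under lasting stress. It was at -0.28, -0.066, 0.063 and 0.35 in wild-type liver and at -0.52, -0.021, -0.22 and 0.13 in Rap1-deficient liver. The ranges overlapped over most of their length, with the highest liver wild type and the lowest Rap1-deficient. In the fit this gave a log2 fold change of -0.18 (SE 0.18, interval -0.58 to 0.23, limma adjusted p = 0.884). It was -0.10 within slide 1 and -0.25 within slide 2.

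Atf3, an immediate early gene of the same family of factors that represses or activates its targets, varied widely in both genotypes. It was at -1.88, -0.73, -2.74 and -1.47 in wild-type liver and at -2.10, -1.14, -0.93 and -1.01 in Rap1-deficient liver. Wild-type replicates 2 and 3 were the highest and the lowest of all 8, 4.02-fold apart, and 3 of the 4 Rap1-deficient livers lay above the wild-type mean. The fitted log2 fold change was 0.41 (SE 0.42, interval -0.54 to 1.37, limma adjusted p = 0.885). Its sign differed between slides, with -0.31 in slide 1 and 1.14 in slide 2.

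**Figure D2:**
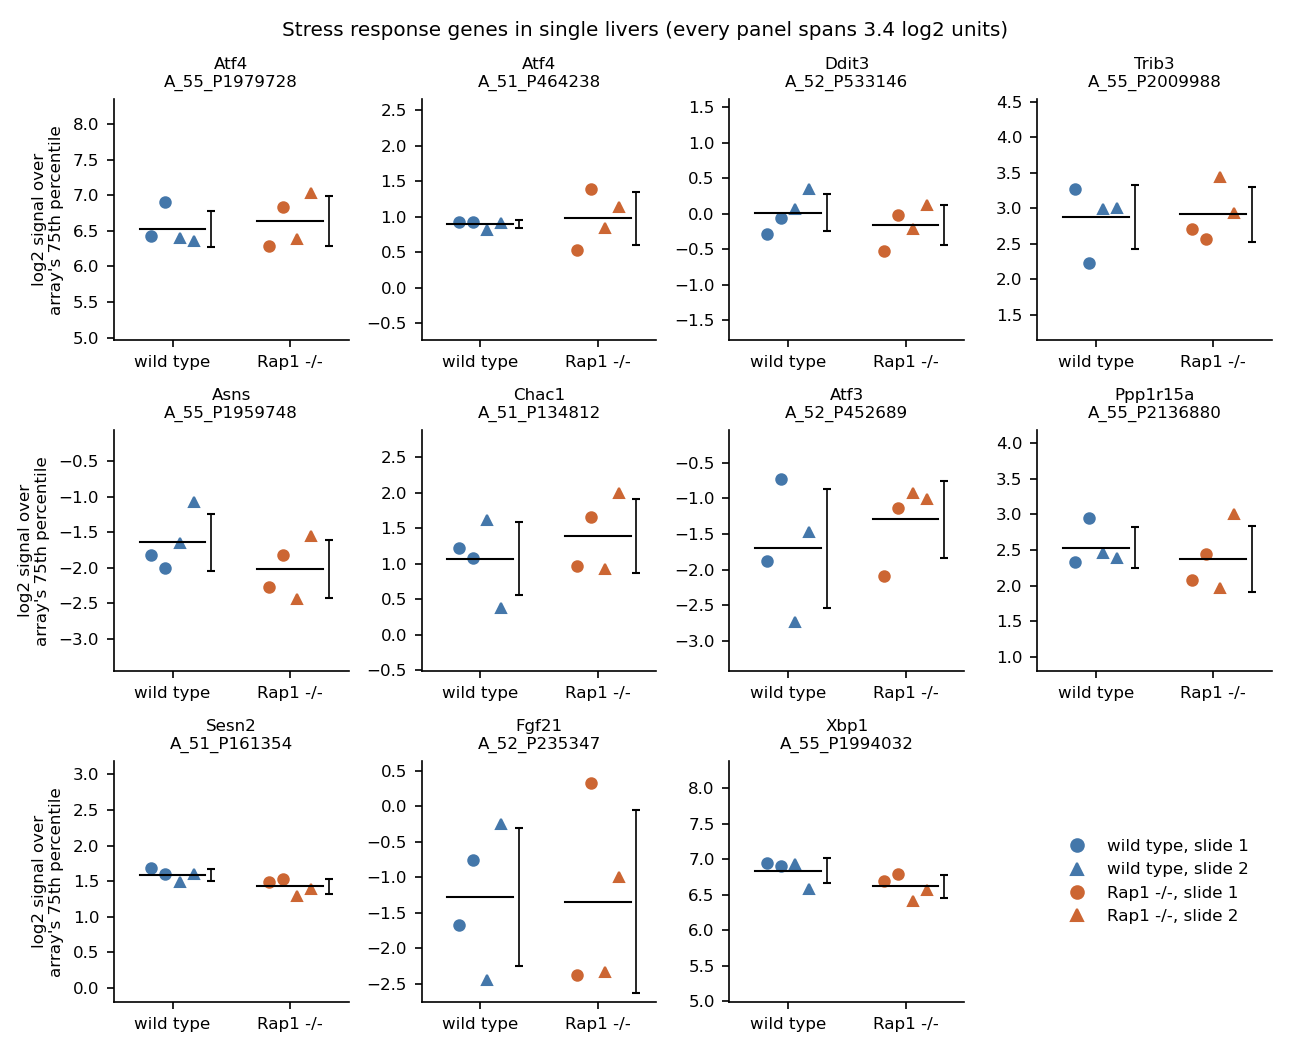
Level of each probe in each liver (vertical axis, log2 of the signal over the array's 75th percentile; every panel spans 3.4 log2 units), for wild type and Rap1 -/- mice on slide 1 (circles) and slide 2 (triangles), with the mean as a line and the SD as a bar (n = 4). The genotypes overlap in all 11 panels, and Fgf21 spreads over 2.77 log2 units while Sesn2 spreads over 0.39.

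Of the genes that ATF4 induces, Asns had the most negative fold change. Asns encodes asparagine synthetase and is a standard readout of amino acid limitation. It was at -1.82, -2.00, -1.66 and -1.08 in wild-type liver and at -2.27, -1.82, -2.44 and -1.55 in Rap1-deficient liver. Rap1-deficient replicates 1 and 3 lay below every wild-type liver and the other 2 lay inside the wild-type range. The log2 fold change was -0.38, a level 1.30-fold lower (SE 0.25, interval -0.95 to 0.18, limma adjusted p = 0.833; exact permutation p = 0.257). It was -0.14 within slide 1 and -0.63 within slide 2.

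Trib3, a pseudokinase that binds AKT and is induced by ATF4 and CHOP, was at 3.27, 2.23, 2.99 and 3.00 in wild-type liver and at 2.71, 2.57, 3.45 and 2.93 in Rap1-deficient liver. Wild-type replicate 2 was the lowest of the 8 and Rap1-deficient replicate 3 the highest. This came to a log2 fold change of 0.038 (SE 0.26, interval -0.55 to 0.62, limma adjusted p = 0.992). This sign turned under every other normalization tried, to between -0.05 and -0.01, so no direction can be given.

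Chac1, an enzyme that degrades glutathione and is among the targets most specific to ATF4, was at 1.22, 1.09, 1.61 and 0.38 in wild-type liver and at 0.97, 1.66, 0.93 and 1.99 in Rap1-deficient liver. Rap1-deficient replicates 2 and 4 were above every wild-type liver, and the other 2 were inside the wild-type range. The fitted log2 fold change was 0.32 (SE 0.31, interval -0.40 to 1.03, limma adjusted p = 0.882). Wild-type replicate 4, the lowest, and Rap1-deficient replicate 4, the highest, are the livers with adipocyte signal, and without both the fold change was -0.12. The part of that tissue in the result was not tested.

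Ppp1r15a encodes GADD34, which brings a phosphatase to eIF2 and so ends the response. It was at 2.34, 2.95, 2.46 and 2.39 in wild-type liver and at 2.08, 2.44, 1.97 and 3.01 in Rap1-deficient liver. Rap1-deficient replicates 1 and 3 lay below every wild-type liver, and replicate 4 lay above all of them. The log2 fold change was -0.16 (SE 0.24, interval -0.70 to 0.38, limma adjusted p = 0.929). It was -0.39 within slide 1, 0.066 within slide 2 and -0.37 without Rap1-deficient replicate 4.

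Sesn2, a stress-induced protein that restrains the growth kinase mTORC1, was the steadiest of the 10. It was at 1.69, 1.60, 1.48 and 1.60 in wild-type liver and at 1.49, 1.52, 1.30 and 1.39 in Rap1-deficient liver. The 4 Rap1-deficient livers were all below the wild-type mean of 1.59, and 2 of them overlapped with wild-type replicate 3. In the fit the log2 fold change was -0.17 (SE 0.095, interval -0.38 to 0.05, limma adjusted p = 0.813). The exact permutation test gave p = 0.0857, where 4 against 4 livers can reach 0.0286. The fold change was -0.14 within slide 1 and -0.19 within slide 2.

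Xbp1 belongs to the IRE1 branch and encodes the factor that induces chaperones once IRE1 has spliced its messenger RNA. Whether the array probe tells the spliced form from the unspliced form was not examined. Xbp1 was at 6.95, 6.90, 6.93 and 6.59 in wild-type liver and at 6.69, 6.80, 6.42 and 6.57 in Rap1-deficient liver. All 4 Rap1-deficient livers were below the wild-type mean of 6.84, and wild-type replicate 4 lay among them. For Xbp1 the log2 fold change was -0.22 (SE 0.12, interval -0.51 to 0.060, limma adjusted p = 0.807; exact permutation p = 0.0857). It was -0.18 within slide 1 and -0.26 within slide 2. Over the 21 alternative settings tried it ran from -0.31 to -0.16, and its adjusted p did not go below 0.770.

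Fgf21, the hormone that liver releases on fasting, on amino acid lack and under mitochondrial stress, differed far more between mice than between genotypes. It was at -1.67, -0.76, -2.45 and -0.24 in wild-type liver and at -2.37, 0.33, -2.33 and -0.99 in Rap1-deficient liver. The highest and the lowest liver, Rap1-deficient replicate 2 and wild-type replicate 3, were 6.83-fold apart, and each genotype held both low and high livers. The mean was -1.28 ± 0.98 (SD, n = 4) in wild-type liver and -1.34 ± 1.28 (SD, n = 4) in Rap1-deficient liver. The fitted log2 fold change was -0.06 (SE 0.67, interval -1.58 to 1.46, limma adjusted p = 0.996), an interval that allows a level 3.00-fold lower or 2.75-fold higher. The sign turned when normexp and quantile normalization were used (0.04), and when some of the single livers were left out. Its SD within genotypes, 1.14, was larger than that of 99.5% of all tested genes.

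The 10 genes differed in how steady they were from mouse to mouse. The SD within genotypes, whose median over all genes was 0.21, was 0.093 for Sesn2 and 0.17 for Xbp1, below that median. The SD of Ddit3 was larger than that of 66.2% of genes and that of Atf4 larger than that of 73.3%. The SDs of Ppp1r15a, Asns, Trib3 and Chac1 exceeded those of 83.0% to 91.9% of genes, and that of Atf3 those of 96.8%. The same livers recurred at the ends of the range. Rap1-deficient replicates 2 and 4 lay above the mean over all livers in 8 of the 10 genes each. Rap1-deficient replicate 1 did so in 0 and replicate 3 in 2, and replicate 3 was the lowest of all in Asns, Ppp1r15a, Sesn2 and Xbp1. The wild-type livers lay above it in 4 to 7 genes. The total over the 10 genes is not compared, because probes differ in brightness.

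Whether the genes varied together was examined across the 8 livers in 23 relations, Atf4 and Fgf21 each with the other genes of the list and Fgf21 with 6 PPARα targets. Atf4 and Ppp1r15a had a Pearson r of 0.84 (exact permutation p = 0.00382, adjusted over the 23 relations 0.0439) and a Spearman rho of 0.79 (exact permutation p = 0.0279, adjusted 0.211). Without Rap1-deficient replicate 4 and wild-type replicate 2, the livers farthest from the median of Atf4, r was 0.46, so the relation rests on those livers. It was 0.79 without both livers with adipocyte signal, 0.85 with slide means removed and 0.94 with genotype means removed. Fgf21 and Angptl4, a fasting-induced inhibitor of lipoprotein lipase, had an r of 0.92 (exact permutation p = 0.00290, adjusted 0.0439) and a rho of 0.90 (exact permutation p = 0.00456, adjusted 0.105). Angptl4 was at 5.72, 6.35, 5.70 and 6.76 in wild-type liver and at 5.68, 6.76, 5.07 and 6.30 in Rap1-deficient liver. The 4 livers that were highest in Fgf21 were thus also the 4 highest in Angptl4, 2 of each genotype. Without Rap1-deficient replicate 2 and wild-type replicate 3, farthest from the median of Fgf21, r was 0.94. It was 0.91 without the livers with adipocyte signal and 0.92 with slide means removed, and a slide alone holds 4 livers, too few for an r of its own. None of the other relations reached an adjusted p of 0.05. Fgf21 with Atf4 had an r of 0.58 (exact permutation p = 0.128, adjusted 0.391).

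**Figure D3:**
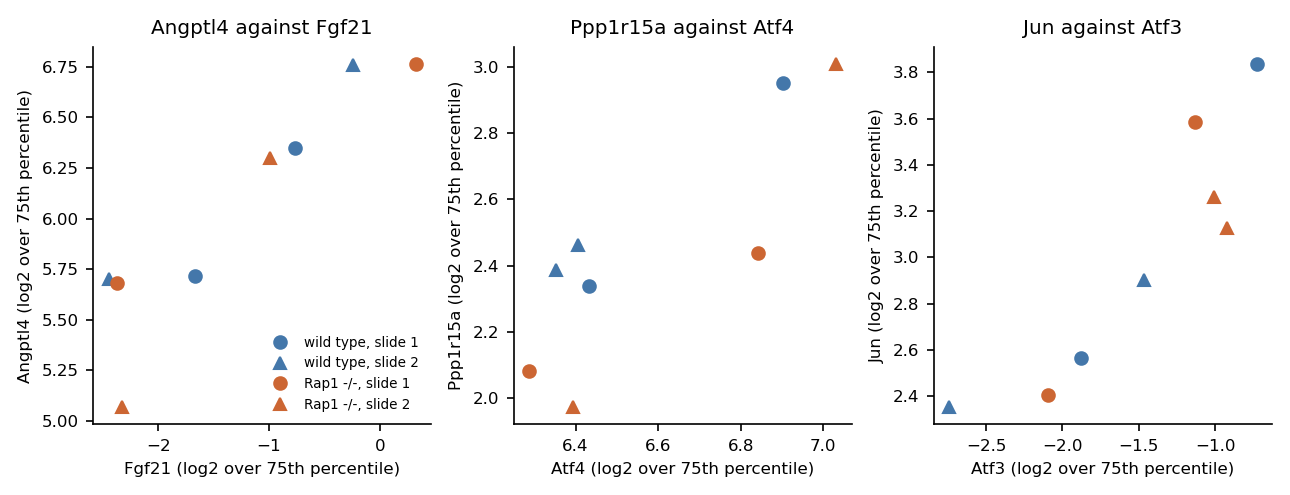
Levels of gene pairs in the 8 livers (both axes, log2 of the signal over the array's 75th percentile), with colour for genotype and circles or triangles for slide 1 or 2. Angptl4 follows Fgf21 in both genotypes (r = 0.92), Ppp1r15a and Atf4 are both high in Rap1-deficient replicate 4 and wild-type replicate 2, and Jun is shown as a gene whose profile was among the nearest to that of Atf3.

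Profiles most like those of the 3 genes whose SD over the 8 livers exceeded 0.5 were taken by the smallest root mean square difference after each gene was centred. For Fgf21 these were G6pc, the last enzyme of glucose release (0.38), Dusp8, a phosphatase of stress kinases (0.47), and Nr0b2, the bile acid responsive repressor SHP (0.49), where the median gene differed from Fgf21 by 1.00. G6pc was at 5.94, 6.78, 5.39 and 7.14 in wild-type liver and at 5.66, 7.14, 4.77 and 6.11 in Rap1-deficient liver. Its 4 highest livers were also the 4 highest in Fgf21. For Atf3 they were Taf1b, a subunit of the RNA polymerase I machinery (0.28), Jun, an immediate early factor (0.29), and Alox12, a lipoxygenase (0.30), and the median gene differed by 0.67. For Chac1 they were Tceal6 (0.22), Strn (0.25) and Zfp872 (0.30), and the median gene differed by 0.51. Many of these genes were dim in all 8 livers. Tceal6 ran from -3.50 to -2.57, Strn from -3.54 to -2.60 and Zfp872 from -4.58 to -3.06. Taf1b ran from -4.91 to -3.57, Alox12 from -3.68 to -2.11 and Dusp8 from -4.95 to -2.48. Jun (2.35 to 3.84) and Nr0b2 (-0.55 to 2.13) were brighter. How far noise of dim probes enters was not tested. The likenesses describe 8 livers and carry no test.

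The rest of the pathway was read from 13 lists of related genes, 211 genes in all, of which 0 passed the test. Among the 19 genes of the eIF2 kinases, eIF2 itself and its exchange factor and phosphatase, 14 were above 0, and their median was 0.07 over all livers, 0.098 within slide 1 and -0.036 within slide 2. The smallest unadjusted p values there belonged to the eIF2 subunit genes Eif2s1 (0.16, SE 0.11, limma adjusted p = 0.841) and Eif2s2 (0.24, SE 0.18, adjusted p = 0.846) and to Impact (0.18, SE 0.16), an inhibitor of the kinase GCN2. Of 14 factors that pair with ATF4 or CHOP, 6 were above 0, and their median was -0.01. They included Creb1 at -0.33 (SE 0.19), Nfe2l2, the antioxidant factor NRF2, at 0.19 (SE 0.12) and Jund at -0.14 (SE 0.15).

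Other genes that ATF4 induces had medians just above that of all genes. Of 18 genes for amino acid synthesis and transport, 13 were above 0 and the median was 0.08. Slc7a5, a transporter of large neutral amino acids, had 0.40 (SE 0.18), and Cth, which makes cysteine, had 0.39 (SE 0.19). Without both livers with adipocyte signal the median of this list was 0.001. Of 12 tRNA synthetase and related genes, 9 were above 0, with a median of 0.08 (0.16 within slide 1 and -0.0072 within slide 2), led by Eprs at 0.29 (SE 0.17), Lars at 0.13 (SE 0.086) and Nars at 0.21 (SE 0.13). The core TGATGNAA lay in the windows of 5 of the 9 genes of this list with a window, Aars, Gars, Iars, Tars and Yars. Of 23 further targets of ATF4 and CHOP, 17 were above 0, with a median of 0.06 over all livers, -0.12 within slide 1 (8 of 23 above 0) and 0.17 within slide 2. Chac2, the paralogue of Chac1, did not overlap between genotypes, at 1.88 to 2.25 in wild-type liver and at 2.28 to 2.56 in Rap1-deficient liver (0.37, SE 0.12, limma adjusted p = 0.773). Eif4ebp1, a repressor of translation, was at -0.16 (SE 0.089), and Ndrg1 was at 0.52 (SE 0.37).

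The chaperones stood beside these genes as the arm from which they were set apart. Of 27 ER chaperones and folding enzymes, 26 were above 0, against 4 of the 10 stress response genes and 55.8% of all genes. The chaperone median was 0.23, against -0.11 for the 10 stress response genes and 0.02 for all genes. In 8 of the 27 the Rap1-deficient livers lay above every wild-type liver, against 0 of the 10. Over all genes 4.30% did not overlap, counting both directions, so 0 of 10 is near that share. The median of the chaperones was 0.30 within slide 1 and 0.17 within slide 2, and that of the 10 genes was -0.13 and -0.06. Sdf2l1, a partner of the chaperone BiP, was at 0.93 to 1.51 in wild-type liver and at 1.87 to 2.25 in Rap1-deficient liver, a log2 fold change of 0.85 (SE 0.15, limma adjusted p = 0.345). Those of the disulfide isomerases Pdia3 and Pdia4 were 0.45 (SE 0.095) and 0.49 (SE 0.12), with an adjusted p of 0.773 each. None of these passed, and the difference between the lists was not tested. Of the 27 genes of the IRE1 and ATF6 sensors and XBP1 targets, 19 were above 0, with a median of 0.09. Sec61b (0.41, SE 0.11), Ssr1 (0.36, SE 0.12) and Tram1 (0.38, SE 0.15), which bring proteins into the ER, had the smallest p values, while Xbp1 itself was at -0.22.

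**Figure D4:**
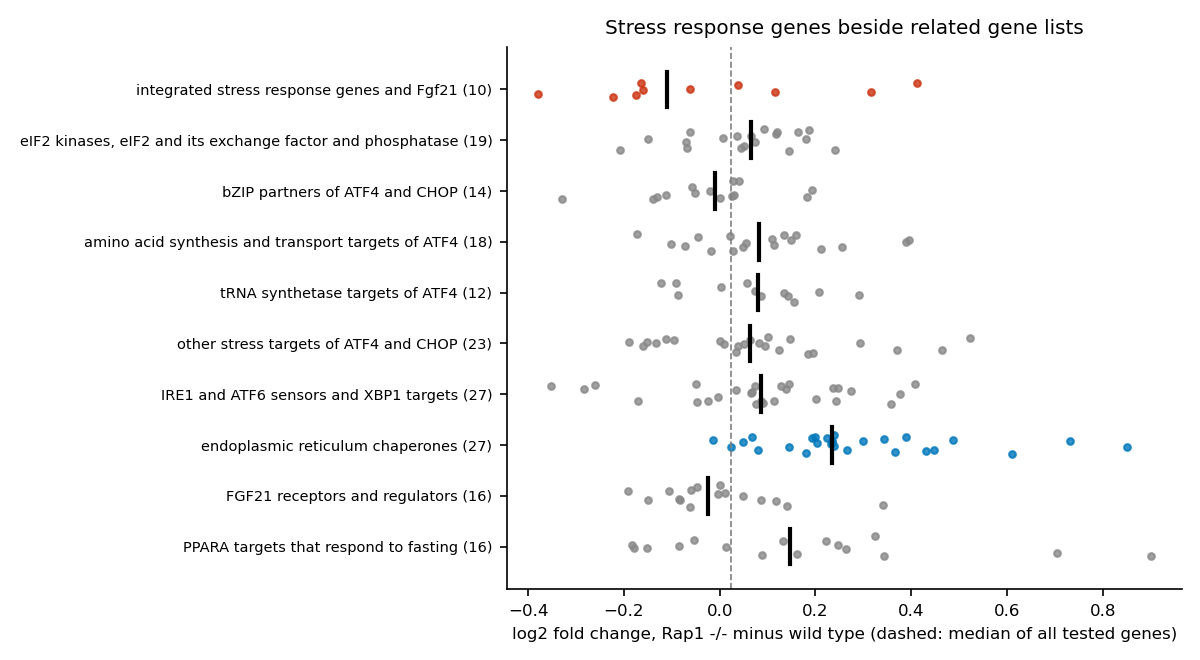
Log2 fold change, Rap1 -/- minus wild type (horizontal axis), of every tested gene (points) in the integrated stress response genes and Fgf21, and in related lists, with list medians as black bars and the number of genes in brackets. The 10 genes lie on both sides of the dashed median of all genes, while 26 of the 27 chaperones and 55.8% of all genes lie above 0.

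Genes that act with Fgf21 or share its control were likewise not called. Of 16 receptors and regulators of FGF21, 6 were above 0, with a median of -0.03 (-0.018 within slide 1 and 0.025 within slide 2). Fap, a protease that cleaves FGF21, was at 0.34 (SE 0.14, limma adjusted p = 0.773), Fgfr2 at -0.19 (SE 0.13) and Nr3c1, the glucocorticoid receptor, at 0.14 (SE 0.11). Of 16 PPARα targets, 11 were above 0, with a median of 0.15 (0.15 within slide 1 and -0.015 within slide 2). Cyp4a10, a fatty acid hydroxylase, had the largest fold change of that list, 0.90 (SE 0.43, limma adjusted p = 0.785). It lay between 6.12 and 6.33 in all 4 Rap1-deficient livers and between 4.41 and 6.79 in wild-type livers, whereas Fgf21 spread widely in both. Acadm was at 0.25 (SE 0.13) and Fabp1 at -0.15 (SE 0.098). Of 10 gluconeogenic genes 5 were above 0 (median -0.02 over all livers, 0.14 within slide 1 and 0.036 within slide 2), with Fbp1 at 0.13 (SE 0.11), G6pc at -0.39 (SE 0.53) and Got1 at 0.15 (SE 0.22).

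Lists that can mark handling, feeding or other stress held no gene that passed. Of 12 lipogenic genes 8 were above 0, and their median was 0.19 over all livers, -0.25 within slide 1 and 0.37 within slide 2. Scd1 was at -0.18 (SE 0.22), Acly at 0.25 (SE 0.33) and Srebf1 at 0.21 (SE 0.32). Of 12 immediate early genes, the group to which Atf3 belongs by its kinetics, 5 were above 0, with a median of -0.03 over all livers, -0.45 within slide 1 and 0.33 within slide 2. The fold change of Atf3 had the same pair of signs, -0.31 and 1.14. In this list Myc was at 0.56 (SE 0.24, limma adjusted p = 0.784), Zfp36 at -0.22 (SE 0.19) and Btg2 at 0.23 (SE 0.23). Of 9 heat shock genes 4 were above 0, with a median of -0.07 that was 0.28 within slide 1 and -0.26 within slide 2. Hspe1 was at 0.22 (SE 0.12), Hspd1 at 0.13 (SE 0.12) and Hspb1 at 0.18 (SE 0.17).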

How the data were processed

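The deposited scanner files hold, per the file headers, a fluorescence intensity for each spot, linear in scale, from Agilent Feature Extraction 10.7.3.1. The intensity used here is the processed signal, from which the authors' scanner software had subtracted background without adjusting arrays to each other. A second file of the authors holds log2 values, for which the processing notes of the submitters list limma. Its values differed from normexp (offset 50) and quantile normalized scanner values by a median of 0.00167. RNA integrity numbers were 6.5 to 8.5 per the labels.

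Flagged spots were left out, spots of a probe averaged, and each array's 75th percentile subtracted on the log2 scale. That percentile was 179 to 209 in wild-type and 220 to 227 in knockout arrays, 50.04% to 65.3% of 55681 probes were above background by the scanner's own test, and no spot reached saturation. Arrays correlated at 0.984 to 0.993. Symbols came from RefSeq accessions (GRCm38.p6) for 26056 probes. Array annotation used build mm9, so no probe coordinates are given. Probes well above background on at least 4 of 8 arrays were kept (31068), and the brightest stood for each of 14066 genes. Genotypes were compared with limma 3.58.1 (R 4.3.3), with Benjamini-Hochberg adjustment over all genes. Permutation tests were exact and two-sided. The number of arrays limits the precision.

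The 10 genes, the lists and the tests were chosen with earlier results of these data known. Named genes are the 10 genes, the 3 smallest p values of each related list, the targeted gene and the 3 profiles nearest to each gene with an SD over 0.5. Some genes that this rule names are not reported here. Alternatives were 20 planned settings and 1 chosen after seeing the data, which left out both livers with adipocyte signal. As the files used hold no mean signal, normexp used the median signal. The procedure was tested on simulated data.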

Additional observations from a re-analysis of the deposited data

Results flagged for a closer look

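Among 22 groups of 4 livers, 1 for each of the 11 probes and each genotype, 3 held a liver far from the other 3, where chance gives about 1 group in 20. Probe A_55_P1979728 of Atf4 was at 6.90 in wild-type replicate 2, and the next of its group was at 6.43. Probe A_51_P464238 of Atf4 was at 0.815 in wild-type replicate 3, and the next was at 0.915, a small gap that stands apart because the other 3 livers lay so close together. Xbp1 was at 6.59 in wild-type replicate 4, and the next was at 6.90. That liver is also the wild-type liver with adipocyte signal, and the part of that signal was not tested.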

How the results depend on the processing

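In all 20 planned settings and in the 1 added after seeing the data, 0 of the 10 stress response genes and 0 genes of the related lists passed, and the smallest adjusted p of any of the 10 was 0.770. The median of the 10 ran from -0.19 to 0.03. The number of all genes that passed, 2, was 0 with normexp and quantile normalization, with the authors' table, within slide 1 and without both livers with adipocyte signal. It was 1 with quantile normalization, without a filter, with probes well above background on all 8 arrays, with slide as a block and within slide 2, and 1 to 1 when single livers were left out. It was 3 with the mean of probes and with a trended and robust fit. Same-numbered livers deviated with correlations of -0.18 to 0.10. Such low values show no pairing by number but cannot exclude that the mice were paired. With the replicate block 0 genes passed.

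Signs turned as follows, and the cause was not tested. Trib3 was at -0.048 with normexp, -0.045 in the authors' table, -0.0093 with quantile normalization and -0.0088 with cyclic loess. Fgf21 was at 0.040 with normexp and 0.044 in the authors' table. Within slide 1, Atf4 was at -0.10, Trib3 at -0.12, Atf3 at -0.31 and Fgf21 at 0.19, and within slide 2 Ppp1r15a was at 0.066. Leaving out 1 liver gave Atf4 values of -0.016 (without Rap1-deficient replicate 4) to 0.24, Trib3 values of -0.18 to 0.17 (below 0 without Rap1-deficient replicate 3 or wild-type replicate 2) and Fgf21 values of -0.62 to 0.28 (above 0 without Rap1-deficient replicate 1 or 3 or wild-type replicate 2 or 4). Without both livers with adipocyte signal, Atf4 was at -0.073, Chac1 at -0.12 and Fgf21 at 0.17. With 4 mice per genotype, the intervals of Chac1, Atf3 and Fgf21 reached beyond 1 log2 unit from 0.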
